A study of Mus musculus with 12 samples.

Results

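The expression of 10 genes of the B-cell program was examined in the spleen of mice fed a high fat diet enriched with EPA and DHA (HFD-ED), a high fat diet with corn oil (HFD-CO) or a low fat control diet. The genes were the transcription factors Pou2f2, Pou2af1, Pax5, Ebf1, Spib, Bach2 and Ikzf3, the cytokine gene Tnfsf13b, which encodes BAFF, and the BAFF receptor genes Tnfrsf13c and Tnfrsf13b. They were chosen by name from the 19057 genes with a probe on the array, and all 10 were measured. Where a gene had more than 1 probe, the probe whose mean over the 12 mice was highest stood for it. The mice were male C57Bl/6J, with 4 on each diet, and the whole spleen of each was profiled on its own array of an Illumina BeadChip.

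The mice of every group were bought at 6 weeks of age, acclimatized for 3 weeks on a standard control chow and then fed their diet for 8 weeks. Per 100 g of diet, HFD-ED contained 15 g fat, made up of 10 g coconut oil, 3 g corn oil and 2 g of EPA and DHA triglycerides. HFD-CO contained the same 15 g, made up of 10 g coconut oil and 5 g corn oil. Cholesterol was added to both at 1 g. Control mice received 5 g fat per 100 g, of which 2.5 g was corn oil and 2.5 g coconut oil, and no added cholesterol. The high fat diets were matched to each other in macronutrients, whereas the control diet also differed from both in protein, sucrose, starch and smaller components, which cannot be told apart from the fat and cholesterol. The authors had picked these mice out of larger groups on body weight and on triglyceride and cholesterol in plasma.

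B cells are built in the bone marrow and live as mature cells in the follicles and marginal zone of the spleen. Ebf1 and Pax5 switch on and hold the B-cell program, the octamer factor Oct-2, encoded by Pou2f2, and its co-activator OBF-1, encoded by Pou2af1, act in mature and activated B cells, Spi-B is an Ets factor of B cells and plasmacytoid dendritic cells, Bach2 holds back the plasma cell program, and Aiolos, encoded by Ikzf3, is an Ikaros family factor of B and other lymphoid cells. BAFF is made mainly by myeloid and stromal cells and keeps mature B cells alive through the receptor BAFF-R, encoded by Tnfrsf13c. TACI, encoded by Tnfrsf13b, binds both BAFF and its relative APRIL and is prominent on marginal zone B cells.

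The promoters of the octamer factor and of both BAFF receptors are shown because the differences described further on centre on these genes. They were taken from a RefSeq table of the mouse assembly GRCm38.p6 and run 5' to 3' on the strand of the gene, and the capitals mark matches to the letters searched. Of the 10 genes, 9 matched the table, and Ebf1 and Tnfsf13b had more than 1 start site in it.
Pou2f2 (chr7:25132411-25132710, minus strand): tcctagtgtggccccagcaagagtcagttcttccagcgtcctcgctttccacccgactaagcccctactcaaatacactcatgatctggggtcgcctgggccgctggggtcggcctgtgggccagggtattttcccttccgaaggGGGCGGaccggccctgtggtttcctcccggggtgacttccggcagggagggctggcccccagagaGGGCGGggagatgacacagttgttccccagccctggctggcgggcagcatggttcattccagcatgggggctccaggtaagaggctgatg
Tnfrsf13c (chr15:82224331-82224630, minus strand): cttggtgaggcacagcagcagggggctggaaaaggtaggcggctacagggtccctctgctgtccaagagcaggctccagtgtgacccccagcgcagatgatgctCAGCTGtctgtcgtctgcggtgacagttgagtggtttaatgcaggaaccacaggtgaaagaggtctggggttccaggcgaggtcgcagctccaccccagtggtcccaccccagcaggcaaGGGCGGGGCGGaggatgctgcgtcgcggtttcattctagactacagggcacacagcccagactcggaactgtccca
Tnfrsf13b (chr11:61126505-61126804, plus strand): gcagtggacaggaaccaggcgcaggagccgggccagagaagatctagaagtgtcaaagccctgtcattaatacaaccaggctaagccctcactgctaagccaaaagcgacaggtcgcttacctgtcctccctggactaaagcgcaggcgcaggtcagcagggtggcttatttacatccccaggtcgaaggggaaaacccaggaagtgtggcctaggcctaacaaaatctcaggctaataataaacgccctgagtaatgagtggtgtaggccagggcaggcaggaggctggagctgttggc
Each window of 300 bases was searched on both strands for the octamer ATTTGCAT, the EBF site (TCCC and GGGA parted by any 2 bases), the Spi box GAGGAAGT, the kappaB site of the immunoglobulin kappa enhancer, the E-box CAGCTG and the GC box GGGCGG. The Pou2f2 window held 2 GC boxes, and that of Tnfrsf13c held 1 E-box and 2 overlapping GC boxes. The Tnfrsf13b window held none of the 6 motifs. Among all 32851 windows of this length in the table, 35.7% held the GC box and 16.3% the E-box. The octamer was in 1.74%, the EBF site in 0.904%, the Spi box in 3.2% and the kappaB site in 0.155% of all windows, and none of these 4 was in a window of the 9 genes. These are matches of letters only and say nothing of binding.

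The values are on a variance-stabilized scale close to log2 that is compressed for dim probes. Most of the 45281 probes lie near the floor of the scale, as the lower quartile of the probe means was 7.08 and the median 7.13. A difference between diets is given in log2 units with limma's standard error, and its adjusted p-value was corrected by the Benjamini-Hochberg method over all probes. The exact permutation test of a single gene, two-sided, allows no p under 0.0286 with 4 mice against 4. Arrays of the same diet correlated with r of 0.971 to 0.995, taken across probes, and probes are not independent. The samples are labelled as spleen, but the text on RNA extraction speaks of skeletal muscle. The spleen genes Slc40a1, Cxcl13 and Spic were at mean levels of 13.21, 11.98 and 10.98, whereas 12 skeletal muscle genes were at 7.04 (Ckm) to 7.97, with Tnni2 the brightest, Mylpf next at 7.42 and the other 10 at 7.29 or lower. The spleen factor genes Tlx1 and Nkx2-5 were also near the floor, at 7.06 and 7.23.

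No gene of the 10 passed an adjusted p of 0.05 in any of the 3 comparisons. Of all probes, 0% were called between HFD-ED and control, 0.00221%, a single probe of Zfp58, between HFD-ED and HFD-CO, and 0% between HFD-CO and control. At an unadjusted p under 0.05, limma counted 4620, 4211 and 2072 probes in these comparisons. The clearest separation by mouse was that of Pou2f2, for which all 8 mice on the high fat diets lay below all 4 control mice. Next came the receptors Tnfrsf13c and, on its brightest probe, Tnfrsf13b, which were lower in HFD-ED than in HFD-CO fed mice.

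**Figure D1:**
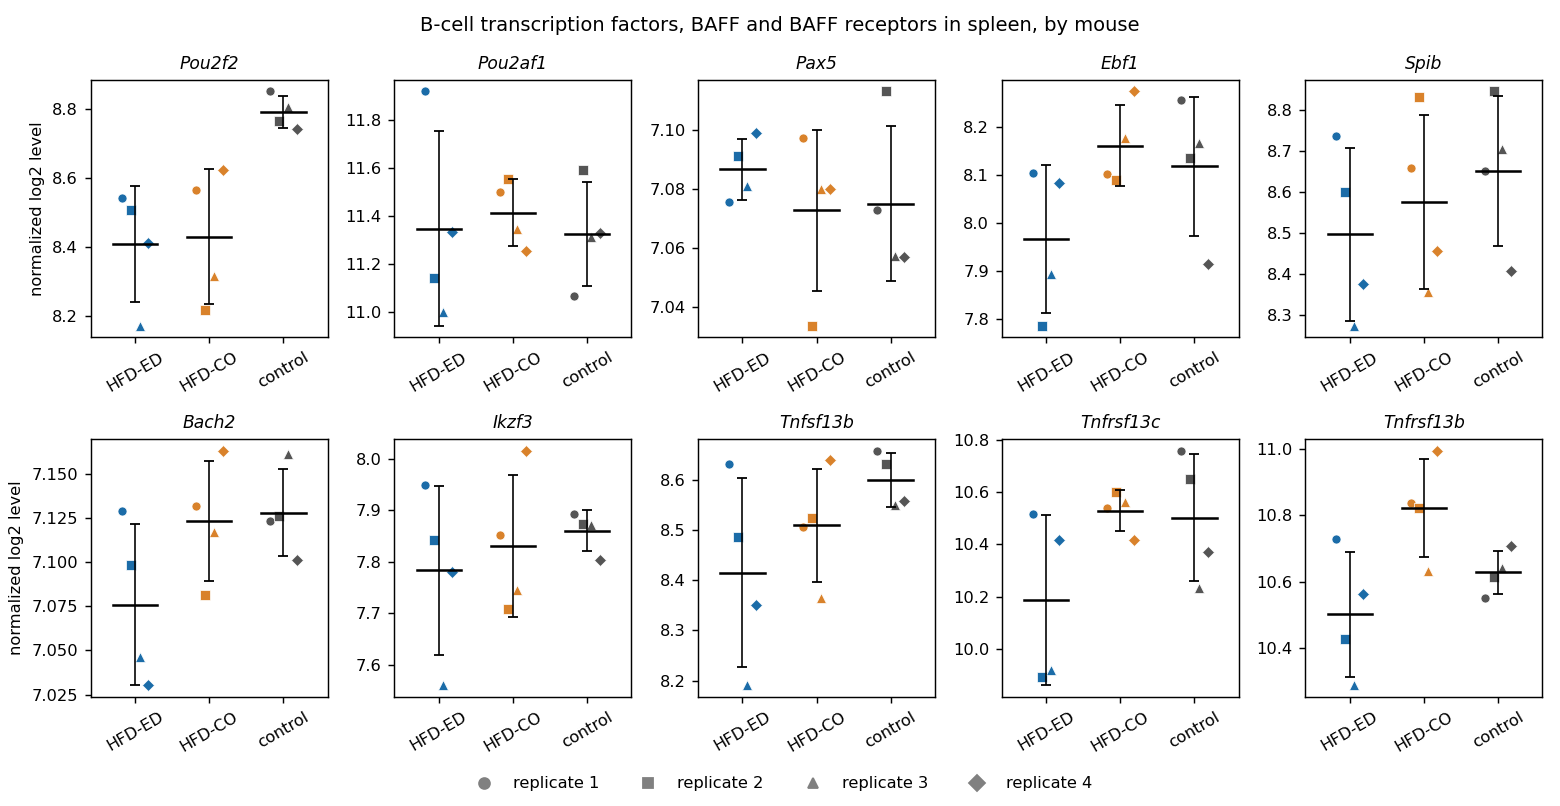
Normalized log2 level (vertical axis, its own range in every panel) of the 10 genes in the 12 spleens by diet. Each symbol is a mouse, the line is the mean and the bar the SD of 4 mice; in the Pou2f2 panel all HFD-ED and HFD-CO mice lie below the control mice, while the Pax5 and Bach2 panels span very small ranges near the floor of the array.

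Pou2f2 had log2 levels of 8.54, 8.51, 8.17 and 8.41 in HFD-ED fed mice and of 8.56, 8.22, 8.31 and 8.62 in HFD-CO fed mice, against 8.85, 8.77, 8.81 and 8.74 in control mice. The control mice were close together and above every mouse on either high fat diet, whereas HFD-ED and HFD-CO fed mice overlapped throughout. The mean was 8.41 ± 0.17 in HFD-ED, 8.43 ± 0.19 in HFD-CO and 8.79 ± 0.05 in control mice (SD, n = 4 each). The difference between HFD-ED and control was -0.38 log2 units, or 1.30-fold lower (SE 0.098, 95% interval -0.60 to -0.17, limma adjusted p = 0.295, exact permutation p = 0.0286). That between HFD-CO and control was -0.36 log2 units, or 1.28-fold lower (SE 0.098, 95% interval -0.58 to -0.14, limma adjusted p = 1.0, exact permutation p = 0.0286). Both differences use the same 4 control mice. Between HFD-ED and HFD-CO the difference was -0.02 log2 units, with an interval of -0.24 to 0.20. In a whole spleen, fewer cells that express a gene and less RNA of it per cell cannot be told apart, here and in all that follows.

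Pou2af1, the co-activator that partners Oct-2, did not share this pattern. It was at 11.92, 11.14, 11.00 and 11.33 in HFD-ED fed mice and at 11.50, 11.55, 11.34 and 11.25 in HFD-CO fed mice, against 11.06, 11.59, 11.31 and 11.33 in control mice. HFD-ED fed mice held both the highest value, in replicate 1, and the lowest, in replicate 3, and the diets overlapped. The limma differences were 0.02 between HFD-ED and control, 0.09 between HFD-CO and control and -0.07 between HFD-ED and HFD-CO, each with an SE of 0.18. The sign of the difference between HFD-ED and control turned without HFD-ED replicate 1, to -0.17, and also without control replicate 1.

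Spib was at 8.74, 8.60, 8.28 and 8.38 in HFD-ED fed mice and at 8.66, 8.83, 8.36 and 8.46 in HFD-CO fed mice, against 8.65, 8.85, 8.70 and 8.41 in control mice. Every diet had mice near the top and near the bottom of this range. The differences were -0.16 between HFD-ED and control, -0.08 between HFD-CO and control and -0.08 between HFD-ED and HFD-CO (SE 0.13 each), all within the spread between mice. The difference between HFD-ED and control was -0.08 without HFD-ED replicate 3, -0.09 without control replicate 2 and -0.24 without HFD-ED replicate 1 or control replicate 4. That between HFD-ED and HFD-CO turned to 0.01 without HFD-CO replicate 2. It was -0.005 without HFD-ED replicate 3, -0.04 without HFD-ED replicate 4, -0.05 without HFD-CO replicate 1, -0.12 without HFD-CO replicate 4, -0.15 without HFD-CO replicate 3 and -0.16 without HFD-ED replicate 1.

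Ebf1, the early B-cell factor, was at 8.10, 7.79, 7.89 and 8.08 in HFD-ED fed mice and at 8.10, 8.09, 8.18 and 8.27 in HFD-CO fed mice, against 8.26, 8.14, 8.17 and 7.91 in control mice. HFD-ED replicates 2 and 3 were the lowest of all, and control replicate 4 was close to them. HFD-ED differed from HFD-CO by -0.19 log2 units (SE 0.086, limma adjusted p = 0.527, exact permutation p = 0.0857) and from control by -0.15 (SE 0.086, limma adjusted p = 0.597). The difference from control was -0.09 without HFD-ED replicate 2. Between HFD-CO and control the difference was 0.04. The brightest Ebf1 probe can be read above the floor, which was not so for the probe of its partner Pax5. The other Ebf1 probes, near the floor with means of 7.35 and 7.28, gave -0.06 and -0.01 between HFD-ED and HFD-CO.

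Pax5 lay between 7.03 and 7.11 in all 12 mice, and Bach2 between 7.03 and 7.16. These levels are those of the bulk of dim probes, since 22.9% of all probes had a lower mean than Pax5 and 40.9% a lower mean than Bach2. The intervals of their differences are narrow because the scale is compressed there, and they do not show that the genes were alike between diets. For Pax5 the differences were 0.01 between HFD-ED and control, -0.002 between HFD-CO and control and 0.01 between HFD-ED and HFD-CO. Bach2 was at 7.13, 7.10, 7.05 and 7.03 in HFD-ED fed mice, against 7.12, 7.13, 7.16 and 7.10 in control mice, a difference of -0.05 (SE 0.025, limma adjusted p = 0.514). The HFD-ED values of Bach2 reached lower than those of control mice but overlapped them.

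Ikzf3 was at 7.95, 7.84, 7.56 and 7.78 in HFD-ED fed mice and at 7.85, 7.71, 7.75 and 8.02 in HFD-CO fed mice, against 7.89, 7.87, 7.87 and 7.80 in control mice. The control mice lay within a narrow band that both high fat diets spread across, on either side. The differences were -0.08 between HFD-ED and control, -0.03 between HFD-CO and control and -0.05 between HFD-ED and HFD-CO. Leaving out HFD-ED replicate 3 brought the difference between HFD-ED and control to -0.003.

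Of the BAFF system, the ligand gene Tnfsf13b was at 8.63, 8.49, 8.19 and 8.35 in HFD-ED fed mice and at 8.51, 8.52, 8.36 and 8.64 in HFD-CO fed mice, against 8.66, 8.63, 8.55 and 8.56 in control mice. HFD-ED replicates 3 and 4 were the lowest of all, while HFD-ED replicate 1 lay among the control mice. The difference between HFD-ED and control was -0.18 log2 units (SE 0.085, limma adjusted p = 0.497, exact permutation p = 0.114). That difference was -0.11 without HFD-ED replicate 3. The difference was -0.09 between HFD-CO and control and likewise -0.09 between HFD-ED and HFD-CO. The last of these was -0.02 without HFD-ED replicate 3, -0.05 without HFD-CO replicate 4, -0.14 without HFD-CO replicate 3 and -0.17 without HFD-ED replicate 1.

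Tnfrsf13c, which encodes BAFF-R, was at 10.52, 9.89, 9.92 and 10.42 in HFD-ED fed mice and at 10.54, 10.60, 10.56 and 10.42 in HFD-CO fed mice, against 10.76, 10.65, 10.23 and 10.37 in control mice. HFD-ED replicates 2 and 3 were the lowest of the 12 mice, whereas HFD-ED replicates 1 and 4 overlapped with the other diets. The difference between HFD-ED and HFD-CO was -0.34 log2 units, or 1.27-fold lower (SE 0.155, 95% interval -0.68 to -4.1e-05, limma adjusted p = 0.537, exact permutation p = 0.0571). Against control it was -0.31 for HFD-ED (SE 0.155, limma adjusted p = 0.526, exact permutation p = 0.200) and 0.03 for HFD-CO.

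Tnfrsf13b, which encodes TACI, was at 10.73, 10.43, 10.29 and 10.56 in HFD-ED fed mice and at 10.84, 10.82, 10.63 and 10.99 in HFD-CO fed mice, against 10.55, 10.61, 10.64 and 10.71 in control mice. HFD-CO fed mice were the higher group, and HFD-ED replicate 1 and HFD-CO replicate 3 were the mice by which HFD-ED and HFD-CO overlapped. The difference between HFD-ED and HFD-CO was -0.32 log2 units, or 1.25-fold lower (SE 0.094, 95% interval -0.53 to -0.11, limma adjusted p = 0.436, exact permutation p = 0.0571). The difference from control was -0.13 for HFD-ED (limma adjusted p = 0.712) and 0.19 for HFD-CO (limma adjusted p = 1.0, exact permutation p = 0.0857), so that the control mean lay between those of the high fat diets. Without HFD-CO replicate 4 the difference between HFD-ED and HFD-CO was -0.26, and without HFD-ED replicate 3 it was -0.25. The difference between HFD-ED and control was -0.06 without HFD-ED replicate 3 and -0.20 without HFD-ED replicate 1.

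**Figure D2:**
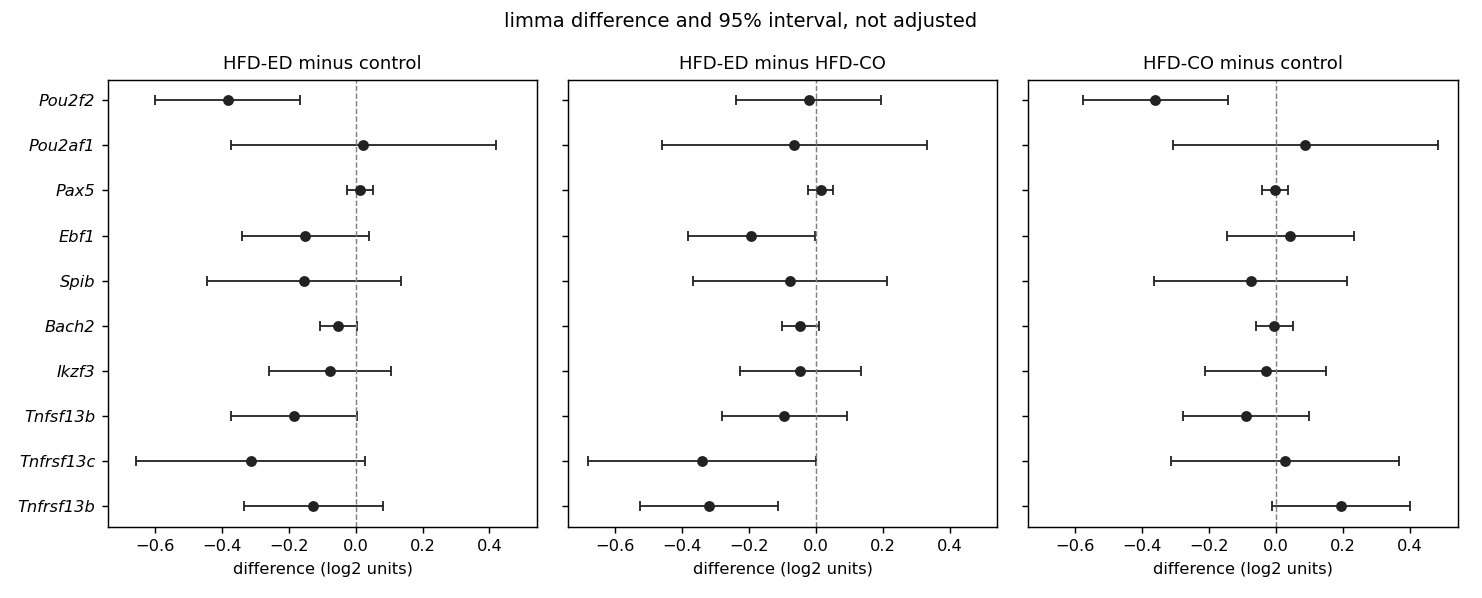
Difference between diet means in log2 units (horizontal axis) with its 95% interval from limma, not adjusted for the number of probes, for each of the 10 genes in the 3 comparisons. The interval of Pou2f2 lies below 0 against control for both high fat diets, and those of Ebf1, Tnfrsf13c and Tnfrsf13b lie below 0 in HFD-ED against HFD-CO.

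In HFD-ED against control, 8 of the 10 genes had a lower mean and 2 a higher one, with a median difference of -0.14, beside 54.1% of all genes with a lower mean and a median of -0.004. At an unadjusted p under 0.05 limma had 1 of the 10 lower, Pou2f2, against 7.55% of all genes, and among genes with a mean of 8 or higher it had 1 of 7, against 16.1%. The same gene was the 1 of 10 whose HFD-ED mice all lay below the control mice, against 3.49% of all genes. Without HFD-ED replicate 1, 5 of the 10 had an unadjusted p under 0.05 in either direction, and the median difference was -0.20. In the same fit 9.31% of all genes were lower at that p, a share of 1 direction only. For the fits without a mouse, here and below, no share among genes with a mean of 8 or higher was counted. The count in either direction was 2 without HFD-ED replicate 4, HFD-CO replicate 3, control replicate 3 or control replicate 4. In these fits 7.1% to 8.04% of all genes were lower at that p. The median was -0.07 without HFD-ED replicate 3.

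In HFD-CO against control, 6 genes had a lower and 4 a higher mean, with a median difference of -0.004, beside 52.2% of all genes with a lower mean and a median of -0.002. Pou2f2 was the 1 gene lower at an unadjusted p under 0.05 in limma, against 2.88% of all genes, and the 1 of 7 with a mean of 8 or higher, against 4.16%. It was also the 1 gene without overlap in that direction, against 1.85%. Without HFD-CO replicate 2 only 3 of the 10 had a lower mean. The count at an unadjusted p under 0.05, in either direction, was 2 without HFD-ED replicate 1, HFD-ED replicate 3 or HFD-CO replicate 3. In these fits 3.01% to 3.28% of all genes were lower at that p, a share of 1 direction only.

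In HFD-ED against HFD-CO, 9 genes had a lower mean and Pax5 a higher one, with a median difference of -0.07, beside 53.0% of all genes with a lower mean and a median of -0.003. Ebf1, Tnfrsf13c and Tnfrsf13b, 3 of the 10, were lower at an unadjusted p under 0.05 in limma, against 5.82% of all genes, and all 3 were among the 7 genes with a mean of 8 or higher, where the share was 11.5%. None of the 10 was without overlap, against 2.61% of all genes. Without HFD-ED replicate 1 the count in either direction was 5, and the median was -0.16. In the same fit 7.7% of all genes were lower at that p, a share of 1 direction only. That count was 1 without HFD-ED replicate 2, HFD-ED replicate 3, HFD-CO replicate 1, HFD-CO replicate 3, HFD-CO replicate 4 or control replicate 2. In these fits 4.38% to 6.33% of all genes were lower. The count was 2 without control replicate 3 or control replicate 4, beside 5.59% and 5.55% of all genes lower. The median was -0.01 without HFD-ED replicate 3 and -0.05 without HFD-CO replicate 1, and -0.12 without HFD-CO replicate 3.

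Tnfsf13b had a further probe above the floor. That probe, with a mean of 8.44, gave a difference of -0.25 between HFD-ED and control (limma adjusted p = 0.398, exact permutation p = 0.0286), with all HFD-ED mice below all control mice, whereas the brightest probe, with a mean of 8.51, had an overlap. Its difference between HFD-ED and HFD-CO was -0.17. Of all genes, each at its brightest probe, 3.49% had all HFD-ED mice below all control mice. For Tnfrsf13b the probes disagreed, as the other probe, with a mean of 7.85, gave -0.01 between HFD-ED and HFD-CO, where the brightest gave -0.32. Between HFD-CO and control the other probe gave -0.03, where the brightest gave 0.19. On the other probe the control mean was the highest of the diets, at 7.88, against 7.84 in HFD-CO and 7.83 in HFD-ED. The other probes of Ebf1, Spib and Ikzf3 and the third of Tnfsf13b had means of 7.12 to 7.56, near the floor, with differences of -0.06 to 0.02 in both of the comparisons with HFD-ED.

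**Figure D3:**
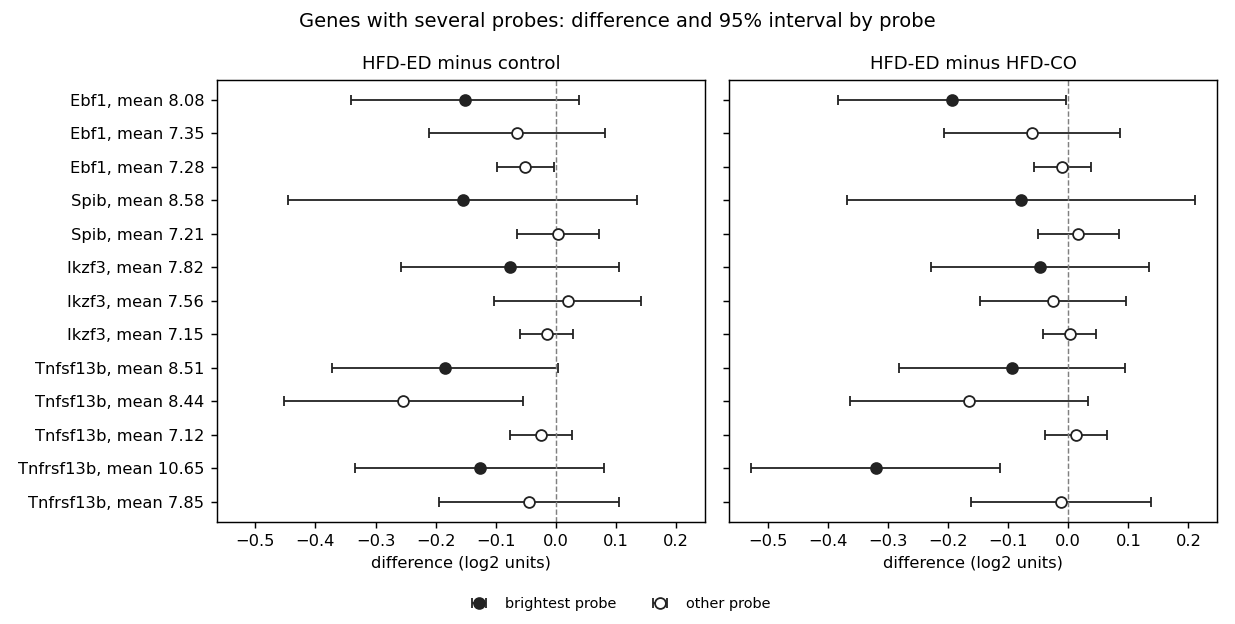
Difference in log2 units (horizontal axis) with limma's 95% interval, not adjusted, for each probe of the 5 genes with more than 1 probe, ordered by gene and by mean level. Filled symbols are the brightest probe and open symbols the others; the Tnfsf13b probes of means 8.51 and 8.44 both lie below 0 in HFD-ED against control, and the Tnfrsf13b probes differ between -0.32 and -0.01 in HFD-ED against HFD-CO.

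By mouse, the low values gathered in HFD-ED replicate 3. It was the lowest of the 12 mice for 6 of the 10 genes, beside 15.6% of all genes, and the lowest or second lowest for 9, beside 24.9%. HFD-ED replicate 1 was lowest or second lowest for none and was the highest for Pou2af1. HFD-CO replicate 4 was the highest mouse for 4 genes, beside 9.27% of all genes, and control replicate 1 for 3, beside 11.2%. As a group, HFD-ED had the lowest mean for 8 of the 10 genes, beside 40.2% of all genes.

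Markers of B cells and of other cells also differed between the mice. The mean of 14 mature B-cell markers, with Fcmr, Cd79b and Ly6d the brightest, deviated from its 12-mouse mean by 0.07, -0.13, -0.41 and -0.11 in HFD-ED fed mice, against 0.03 to 0.12 in HFD-CO and 0.003 to 0.16 in control mice. HFD-ED replicates 2, 3 and 4 lay below all other mice, and HFD-ED replicate 1 among them. In HFD-ED, 13 of the 14 markers had a lower mean than in control, with a median difference of -0.22, and all 14 a lower mean than in HFD-CO, with a median of -0.18. None passed an adjusted p of 0.05 in limma. The mean of 12 T-cell markers was at 0.06, 0.01, -0.38 and -0.11 in HFD-ED fed mice, against -0.01 to 0.12 in HFD-CO and -0.05 to 0.07 in control mice.

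Markers of dendritic and natural killer cells were arranged differently. The 10 markers of dendritic cells, plasmacytoid ones included, had Tcf4, Klrd1 and Siglech as the brightest. Tcf4 also stands among the other B-lineage factors, and Klrd1 is a killer cell lectin-like receptor gene. The mean was -0.04, -0.12, -0.17 and -0.07 in HFD-ED fed mice, against -0.02 to 0.03 in HFD-CO and 0.03 to 0.18 in control mice. All HFD-ED fed mice, replicate 1 included, lay below all mice of the other diets. The mean of 9 natural killer cell markers was at -0.11, -0.04, -0.18 and -0.02 in HFD-ED fed mice, against -0.04 to 0.09 in HFD-CO and 0.02 to 0.12 in control mice. All HFD-ED fed mice lay below all control mice, and HFD-CO fed mice overlapped with both groups.

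HFD-ED replicates 2, 3 and 4 had the highest erythroid, neutrophil and cycling-cell marker means of the series. The 22 erythroid markers deviated by -0.51, 0.81, 1.33 and 0.72 in HFD-ED fed mice, against -0.71 to 0.35 in HFD-CO and -0.65 to 0.22 in control mice. The 13 neutrophil markers deviated by -0.26, 0.67, 1.93 and 0.44 in HFD-ED, against -0.77 to -0.29 in HFD-CO and -0.65 to 0.25 in control mice. The 10 pancreatic acinar markers stood at 4.75 in HFD-CO replicate 4, the mouse that was the highest for 4 of the genes, and at 0.99 in HFD-CO replicate 1, against -0.68 to -0.16 in HFD-ED and -0.72 to -0.16 in control mice. The part of these cells in the levels of the 10 genes was not tested.

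**Figure D4:**
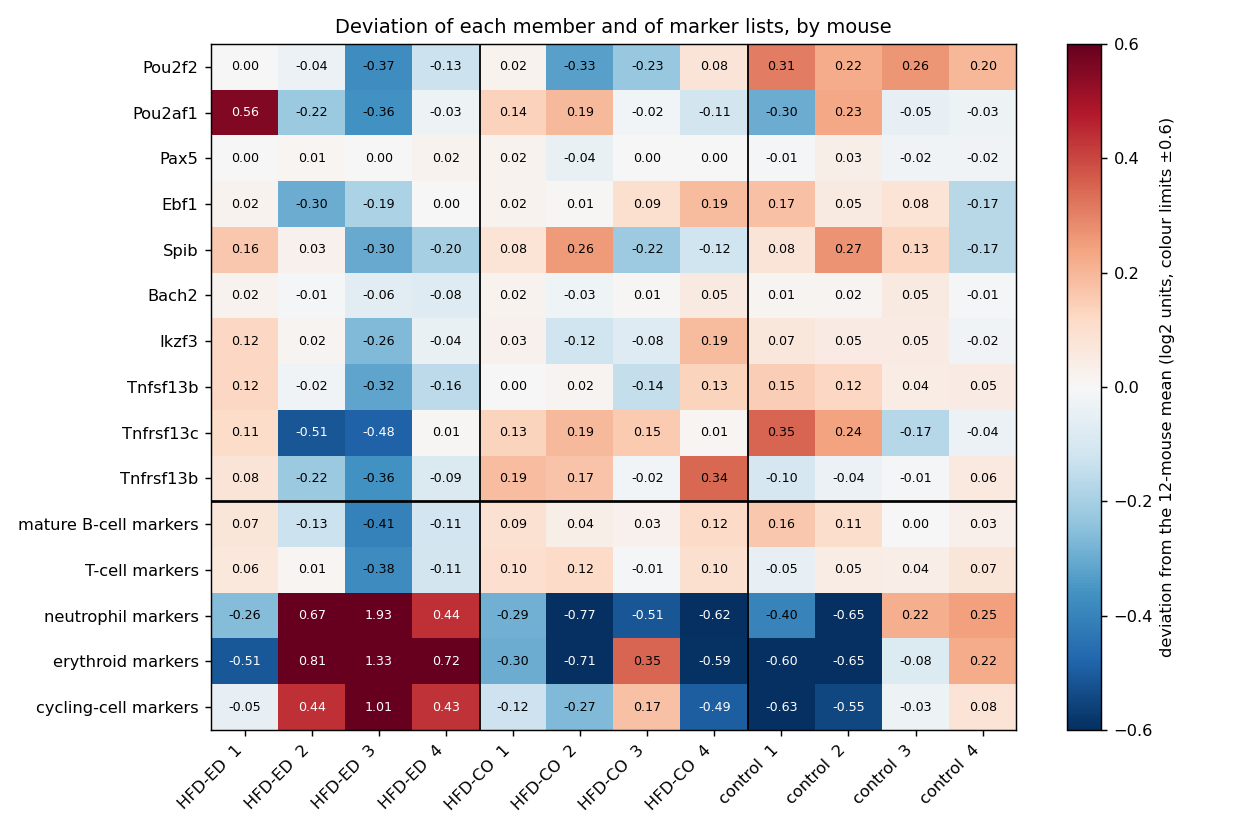
Deviation of each gene, and of the mean of 5 marker lists, from its 12-mouse mean in log2 units (colour, limited to 0.6 either way, with the value in each cell), for the 12 mice in columns by diet. HFD-ED replicate 3 is below the mean for 9 of the 10 genes and for mature B-cell and T-cell markers, while its erythroid, neutrophil and cycling-cell markers are the highest of the series.

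Levels relative to the 14 mature B-cell markers of the same array were also taken, a measure chosen after the values had been seen, and given without a test. The same marker mean was subtracted from every gene of a mouse. A smaller or turned difference is therefore not particular to a gene. On this measure Pou2f2, centred on the 12-mouse mean, stood at -0.07, 0.09, 0.03 and -0.02 in HFD-ED fed mice. It was at -0.07, -0.36, -0.26 and -0.04 in HFD-CO fed mice, against 0.14, 0.12, 0.26 and 0.17 in control mice. All mice on both high fat diets again lay below all control mice, with differences of -0.16 for HFD-ED and -0.35 for HFD-CO. For Tnfrsf13c the difference between HFD-ED and HFD-CO was -0.13 on this measure and -0.34 without it. That of Tnfrsf13b was -0.11 on this measure and -0.32 without it, with HFD-ED at -0.09 to 0.04, HFD-CO at -0.05 to 0.23 and control at -0.26 to 0.02. Ebf1, Spib, Tnfsf13b and Tnfrsf13b, which had lower means in HFD-ED than in control, had differences of 0.07, 0.06, 0.04 and 0.09 relative to the markers. That of Tnfrsf13c was -0.10. Ikzf3, whose probe is dimmer, had a difference of 0.14, with all HFD-ED fed mice above all control mice on this measure. The dim Bach2 had one of 0.17 and Pax5, near the floor, one of 0.23, both with an overlap. The bright Pou2af1 had the largest difference between HFD-ED and control on this measure, 0.24, also with an overlap. The share of all genes without overlap on this measure was not counted, so none stands beside Pou2f2 and Ikzf3. BAFF is not a B-cell product in the main, so that the measure applies less well to Tnfsf13b than to the receptors. Differences of dimmer probes are compressed. That limit can hold for Pou2f2, at a mean of 8.54, as for Tnfsf13b, at 8.51, and more so for Ebf1, at 8.08.

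**Figure D5:**
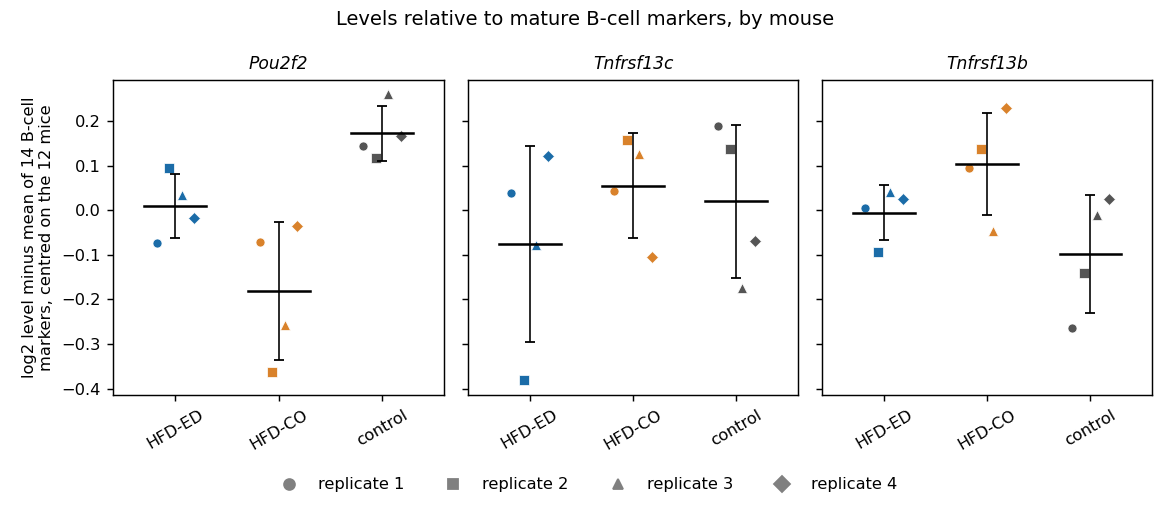
Log2 level of Pou2f2, Tnfrsf13c and Tnfrsf13b minus the mean of 14 mature B-cell markers of the same array, centred on the 12 mice (vertical axis), by diet. Each symbol is a mouse, the line is the mean and the bar the SD of 4 mice; for Pou2f2 all HFD-ED and HFD-CO mice lie below the control mice, while the diets overlap for both receptors.

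Downstream of the BAFF receptors, BAFF-R signals through TRAF adaptors and the kinase NIK, encoded by Map3k14, to process p100, the product of Nfkb2, and keeps B cells alive through proteins such as Mcl-1. Of 22 measured genes of the BAFF and APRIL pathway, 15 had lower and 7 higher means in HFD-ED than in control, with a median of -0.05, and 5 were lower at an unadjusted p under 0.05 in limma. Over all genes, 54.1% had lower means in this comparison and 7.55% were lower at that p, or 16.1% of those with a mean of 8 or higher. None passed the adjusted test in any comparison. Birc2, which encodes an inhibitor of NIK signaling, differed by -0.36 from control, Map3k14 by -0.32, Mcl1 by -0.32 and Nfkb2 by -0.22. Mcl1 was at 12.30, 12.23, 12.27 and 12.38 in HFD-ED fed mice and at 12.58, 12.79, 12.46 and 12.74 in HFD-CO fed mice, against 12.81, 12.67, 12.58 and 12.40 in control mice. All HFD-ED fed mice lay below all mice of the other diets, by 12.38 against 12.40 at the closest, and the difference from HFD-CO was -0.35. Over all genes, 3.49% had all HFD-ED mice below all control mice and 2.61% had them below all HFD-CO mice. The share with both was not counted. Between HFD-CO and control, 11 of the 22 genes had lower and 11 higher means.

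Among 30 other transcription factors of the B lineage, 22 had lower means in HFD-ED than in control, with a median of -0.06, and 4 were lower at an unadjusted p under 0.05 in limma, beside the same shares of all genes. These were Bcl6, the germinal center repressor, at -0.42, the inhibitor genes Id2 at -0.43 and Id3 at -0.18, and Foxp1 at -0.26. Id2 and Id3 oppose E proteins such as E2A. Of 8 measured germinal center B-cell markers, Bcl6 among them, 4 had lower and 4 higher means in HFD-ED than in control. Their median difference was 0.005. In HFD-ED against HFD-CO, 24 of the 30 had lower means, and limma had none at an unadjusted p under 0.05, beside 53.0% and 5.82% of all genes. Of 13 plasma cell factors, 4 had lower and 9 higher means in HFD-ED than in control, with a median of 0.02. Slamf7, a surface receptor of plasma cells and natural killer cells, differed by -0.36 from control and by -0.40 from HFD-CO. None of these genes passed the adjusted test.

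Of 20 genes that Pax5 or Ebf1 activates, 16 had lower and 4 higher means in HFD-ED than in control, with a median of -0.09. Blk, a B-cell Src kinase, differed by -0.58, Cd83 by -0.37 and the B-cell receptor gene Cd79b by -0.34. Cd24a, which is also abundant on red cell precursors, differed by 0.35. Fcer2a, the low affinity IgE receptor CD23, differed by -0.48 between HFD-ED and HFD-CO. Of 12 genes that Pax5 represses, 10 also had lower means in HFD-ED than in control, with a median of -0.04. Beside both lists stand the 54.1% of all genes with a lower mean in HFD-ED than in control.

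Of 7 genes that Bach2 represses, 3 had lower and 4 higher means in HFD-ED than in control. Gclm, a subunit of the enzyme that makes glutathione, differed by 1.12, and was at 8.36, 10.38, 10.73 and 9.79 in HFD-ED fed mice, against 8.34, 8.52, 8.84 and 9.09 in control mice. HFD-ED replicates 2, 3 and 4, which lay above all control mice, also had high erythroid markers. Cdkn1a differed by -0.15. Of 12 genes linked to octamer factors or Spi-B, with Spib itself among them, 11 had lower means in HFD-ED than in control, with a median of -0.14, and 10 had lower means in HFD-ED than in HFD-CO, beside the 54.1% and 53.0% of all genes. Cxcr5, the receptor that brings B cells into follicles, differed by -0.40 from control and -0.45 from HFD-CO, and Ly96, the partner of Toll-like receptor 4, by -0.37 from control. None of these genes passed the adjusted test, and some stand in more than 1 list.

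Across the 12 mice the genes followed each other to different degrees. Ikzf3 and Tnfsf13b had a Pearson r of 0.85, Pou2f2 and Tnfsf13b and Ebf1 and Tnfrsf13c an r of 0.76 each, and Pou2f2 and its partner Pou2af1 an r of 0.04. Among 7013 other genes with a mean of 7.5 or higher, Pou2f2 was most like Tmem219 with r of 0.94, followed by Trim7 and Map3k11. Tnfrsf13b was most like Bcl11b, a T-cell transcription factor gene, with r of 0.97, Tnfsf13b most like Rab40c with r of 0.95, and Tnfrsf13c most like Parp6 with r of 0.93. These are the highest of 7013 correlations over 12 points, and all genes share the same arrays.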

How the data were processed

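Spleen RNA of 12 mice was profiled on Illumina MouseWG-6 BeadChips, with 1 array per mouse. Bead intensities were read out by the authors in GenomeStudio, then stabilized for variance and quantile normalized in lumi, of which the submitters' processing notes name version 2.18.0. The deposited log2 values were taken without further change. The transformation compresses differences of dim probes. Detection p-values were not used here. Of 45281 probes, 34885 carry 1 gene symbol, 18 several and 10378 none.

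The 3 diets were fitted together with limma 3.58.1 in R 4.3.3 (lmFit, eBayes, two-sided), without a filter, and p-values were adjusted by the Benjamini-Hochberg method over all probes within a comparison, with calls at 0.05. The methods of the study call at 0.001, and no probe passed that. Single genes were also compared by exact permutation tests. The code was tested on simulated data. The p-values of limma set a difference against the spread between the mice chosen within diets, moderated over all probes. The number of arrays limits the precision.

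The 10 genes and all gene lists were chosen with earlier results of these data known. Named beside the 10 genes were, from each list, up to 4 genes with the smallest p in HFD-ED against control and up to 2 in HFD-ED against HFD-CO, the brightest markers, and the genes most correlated with each of the 10. Slc40a1, Cxcl13, Spic, Tlx1, Nkx2-5, Ckm, Mylpf, Tnni2 and Zfp58 were named in addition. Alternatives were a replicate block, other variance models, array weights, a dim-probe filter, other normalizations, other choices of probe, fit and adjustment, and leaving out each mouse.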

Additional observations from a re-analysis of the deposited data

How the results depend on the processing

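None of the 10 genes passed an adjusted p of 0.05 under any alternative, and the lowest adjusted p of limma was 0.0845 for Tnfrsf13b in HFD-ED against HFD-CO and 0.0923 for Pou2f2 in HFD-ED against control. With the measure relative to B-cell markers left aside, the difference of Pou2f2 ranged over the alternatives from -0.43 to -0.30 for HFD-ED against control and from -0.43 to -0.29 for HFD-CO against control. That of Tnfrsf13b between HFD-ED and HFD-CO ranged from -0.40 to -0.17 and that of Tnfrsf13c from -0.45 to -0.24. The 1 probe called over the whole array in HFD-ED against HFD-CO was lost, with 0 probes called, under an intensity trend, a filter at a mean of 7.5, cyclic loess, a fit of only the diets compared and an adjustment over the 3 comparisons together. Leaving out a mouse gave 0 to 46 probes there and 0 to 87 in HFD-ED against control, with 46 and 87 both without HFD-ED replicate 1. In HFD-ED against control, 3 features were called with 1 probe per gene symbol, and 3 with the mean of all probes of a gene. The causes were not tested.

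The replicate numbers of the labels showed no clear pairing of the mice. Only 4 of 12 same-numbered pairs had a correlation over 0.1, and 3 mice were closest to a mouse of their number. With so few mice these values cannot exclude a pairing. Mice of the same number follow each other in the order of the samples, and the labels do not say why. With the replicate number as a block, 0 probes were called in HFD-ED against HFD-CO, and the block changed no other call.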
